A study of Mus musculus with 6 samples.

Results

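Protocadherins are cell-surface adhesion proteins of the cadherin superfamily. Among 18180 genes measured in samples described as sorted mouse pancreatic tumour cells, 57 protocadherin genes had values. Members were the rows with values whose gene symbol starts with Pcdh and whose chromosome is not X or Y. They comprised 5 genes of the alpha cluster, 22 of the beta cluster and 21 of the gamma cluster on chromosome 18, and 9 members that are not part of these clusters. Of 70 Pcdh rows, 11 had no value (8 alpha genes with a number, namely Pcdha2, Pcdha4, Pcdha5, Pcdha6, Pcdha7, Pcdha8, Pcdha10 and Pcdha11, then Pcdhac1, Pcdhga10 and Pcdh8) and were not analysed here. The other 2 rows lie on the X chromosome, outside the rule.

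The clustered genes stand in tandem, and each starts from its own promoter. In the alpha and gamma clusters every variable first exon is spliced to constant exons that the whole cluster shares, whereas beta genes are complete within a single large coding exon. In mouse neurons each cell uses a small choice of these promoters, a choice that involves the insulator protein CTCF, cohesin and DNA methylation, and the proteins bind like proteins on other cells, which lets a neuron tell its own branches from those of others. Non-clustered protocadherins are single genes with separate roles in adhesion and movement, and in several human carcinomas the PCDH10 promoter is found methylated.

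Bulk RNA was sequenced in 3 libraries titled KPSC and 3 titled KPC. Each is described as sorted tumour cells of an orthotopic PDAC, a pancreatic ductal adenocarcinoma grown in the pancreas of a host mouse. All 6 carry the strain label C57BL/6, and tumours were collected at about 10 to 14 days. The genotype field gives wild type to the libraries titled KPSC and a Setd2 knockout to those titled KPC. Setd2 is the histone H3 lysine 36 methyltransferase, and an added letter in a title more often marks the added allele, so each group keeps the name in its titles here and nothing is read from the genotype field. The labels do not spell out KPSC and KPC, the driver alleles, the sort markers, or whether a line is 1 clone. Whether each library is a separate animal is not said either. The p-values set the difference between the groups against the spread of the libraries within a group, and that spread may be technical.

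Depth was 16763856, 15215066 and 16995401 reads over the listed genes in KPSC replicates 1, 2 and 3, and 15753044, 17746969 and 14662710 in KPC replicates 1, 2 and 3. Setd2 stood at 859, 908 and 1042 normalised reads in the KPSC libraries and at 1338, 1099 and 1046 in the KPC libraries, a log2 difference of -0.31 (SE 0.12) short of the threshold (limma, adjusted p = 0.148). A deletion of a few exons need not lower a count over the whole gene, and which group lacks the enzyme cannot be told from these values. Acinar digestive-enzyme genes took 19.2%, 9.99% and 0.414% of the reads of the KPSC libraries and 2.61%, 0.998% and 7.63% of those of the KPC libraries. The fibroblast marker Col1a1 averaged 51425 normalised reads in KPSC and 52694 in KPC, above the epithelial marker Krt19 at 25552 and 13431. The leukocyte marker Ptprc averaged 1366 in KPSC and 2542 in KPC. Genes used as markers of other cell types were thus read in samples described as sorted tumour cells. Which cells gave these reads, and the purity of the sort, were not tested. KPSC replicate 3 correlated at 0.947 and 0.954 with the other KPSC libraries across genes, whereas those 2 correlated at 0.984. KPSC replicates 1 and 2 each correlated more closely with every KPC library (0.956 to 0.965) than with KPSC replicate 3.

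Of the 57 protocadherins, 52 passed the filter on low values (at least 1 normalised read in 3 or more libraries), and 14 of these passed the test of KPSC against KPC (limma on log2(value + 1), Benjamini-Hochberg adjusted p under 0.05 over all genes). That is 26.9% of the members tested, beside 14.4% of all 16737 genes tested. In the KPSC libraries 5 members were higher, where 7.61% of all genes were higher, and 9 were lower, where 6.76% of all genes were lower. The 9 lower members were Pcdh10 and 8 neighbouring beta genes, Pcdhb15 to Pcdhb22, and the 5 higher members were Pcdh1 and the gamma genes Pcdhgb2, Pcdhga5, Pcdhgb5 and Pcdhgb7. The same 14 genes passed in edgeR's quasi-likelihood test on whole reads recovered from the values, where 37 members were tested and 17.3% of 14293 genes passed, in DESeq2, and in the authors' deposited table. The groups did not overlap for 22 of the 52 members, 11 in each direction, or 42.3% beside 34.8% of all genes. For each of the 14 the exact two-sided permutation test over the 6 libraries gave p = 0.1, the smallest that its 20 arrangements allow.

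Leaving out any single library left all 9 lower members past the test, while the number of higher members moved. It was 2 without KPSC replicate 1, KPSC replicate 2 or KPC replicate 2, 3 without KPC replicate 1 or KPC replicate 3, and 5 without KPSC replicate 3. For the 3 libraries whose acinar share was at most 5%, KPSC replicate 3 was set against KPC replicates 1 and 2. The lone KPSC library was assumed to vary like the others, so this fit cannot decide whether the calls hold there. Its log2 fold changes in limma were -3.80 for Pcdh10 and 1.07 for Pcdh1. They ran between -2.81 and -1.53 for Pcdhb15 to Pcdhb22. For Pcdhgb2, Pcdhga5, Pcdhgb5 and Pcdhgb7 they ran between 1.17 and 1.94. Every value of a group is a level in bulk RNA, where fewer cells of a type and less RNA per cell cannot be told apart.

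Pcdh10 and Pcdh18, which lie 4.36 Mb apart on chromosome 3, are shown by promoter because the first was the most changed protocadherin while the other did not pass the test, and because both promoters are rich in the CG dinucleotides at which mammalian DNA is methylated. The sequences are the 250 bases before each RefSeq gene start (build GRCm38.p6), chr3:45378148-45378397 on the plus strand for Pcdh10 and chr3:49757317-49757566 on the minus strand for Pcdh18, with CG in capitals.
Pcdh10: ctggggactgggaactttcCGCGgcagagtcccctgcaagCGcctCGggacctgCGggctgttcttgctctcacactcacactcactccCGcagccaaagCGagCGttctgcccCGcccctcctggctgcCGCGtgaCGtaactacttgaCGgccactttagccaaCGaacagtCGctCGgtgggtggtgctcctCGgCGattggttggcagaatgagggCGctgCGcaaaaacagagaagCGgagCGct
Pcdh18: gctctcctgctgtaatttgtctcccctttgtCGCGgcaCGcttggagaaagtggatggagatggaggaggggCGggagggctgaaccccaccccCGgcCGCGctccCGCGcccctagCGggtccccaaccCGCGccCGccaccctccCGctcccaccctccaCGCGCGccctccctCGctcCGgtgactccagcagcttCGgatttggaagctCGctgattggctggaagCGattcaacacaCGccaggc

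The Pcdh10 window held 22 CG and 63.2% G and C, and the Pcdh18 window 23 CG and 68.0%. Of 27025 RefSeq promoters of the same length, whose median was 6 CG, 14.6% held at least as many as Pcdh10 and 13.0% at least as many as Pcdh18. Among the other non-clustered members outside chromosome 18, the count was 21 for Pcdh17, 18 for Pcdh9, 7 for Pcdh7, 6 for Pcdh15 and 3 for Pcdh20. Promoters on chromosome 18, where Pcdh1 and Pcdh12 lie, were left out of the search, so 7 of the 9 are given. Neither printed window holds the letters TATAAA on either strand, which 13.0% of the promoters hold and of these 7 the Pcdh15 window alone. Methylation was not measured in these libraries, so the windows are a description only.

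Pcdh10 (chromosome 3, 45378398 to 45435623, plus strand, GRCm38) encodes a protocadherin that binds the actin-regulating WAVE complex in mouse axons. It stood at 70.0, 63.7 and 77.7 normalised reads in KPSC replicates 1, 2 and 3, against 1143, 1046 and 840 in KPC replicates 1, 2 and 3. The groups lie far apart, and no KPSC library comes near any KPC library. The means were 70.5 ± 7.03 in KPSC and 1009.9 ± 155 in KPC (SD, n = 3 each), 14.3-fold lower in KPSC, with a log2 fold change of -3.81 (SE 0.16; limma, adjusted p = 4.26e-05). In edgeR the log2 fold change was -3.84 (adjusted p = 5.75e-05), and over the 3 libraries low in acinar reads limma gave -3.80 (adjusted p = 0.0748).

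The noncoding gene 2610316D01Rik runs away from Pcdh10 on the minus strand (chromosome 3, 45280437 to 45378260), and its start lies 138 bases before that of Pcdh10, inside the printed window. It had 2.42, 3.35 and 7.77 normalised reads in the KPSC libraries and 77.3, 69.8 and 60.4 in the KPC libraries, again with no overlap. Its log2 fold change was -3.78 (limma, adjusted p = 0.00163), next to the -3.81 of Pcdh10. This neighbour was chosen after its values were seen. The other gene tested within 1 Mb, 1700027H10Rik, lies antisense to Pcdh10 and averaged 0.745 ± 1.29 normalised reads in KPSC and 2.42 ± 1.66 in KPC (SD, n = 3 each). On chromosome 3 as a whole, 614 genes with a mean of at least 50 normalised reads had a median log2 fold change of -0.24.

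Pcdh1 (chromosome 18, 38185914 to 38212053, minus strand) encodes a protocadherin of epithelia, known in humans for its part in airway epithelial adhesion. It stood at 1508, 1530 and 1551 normalised reads in the KPSC libraries, against 736, 745 and 562 in the KPC libraries. Every KPSC library is above every KPC library, and the KPSC values lie close together. The means were 1529.6 ± 21.4 in KPSC and 681 ± 103 in KPC (SD, n = 3 each), a 2.25-fold higher level with a log2 fold change of 1.18 (SE 0.12; limma, adjusted p = 0.00124). Of 16 genes tested within 1 Mb of Pcdh1 and Pcdh12, 2 were higher and 6 lower, their median being -0.45. Over all genes 7.61% were higher and 6.76% lower.

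Beside Pcdh1, markers of tumour epithelium were also higher in KPSC. Of 6 epithelial markers 5 were higher and 0 lower, and their summed level ran between 113702 and 124264 normalised reads in KPSC and between 55182 and 71671 in KPC. Epcam, an epithelial adhesion protein, averaged 6075 ± 1244 in KPSC and 1844 ± 355 in KPC (SD, n = 3 each), with a log2 difference of 1.72 (limma, adjusted p = 0.00129). The part of these cells in the Pcdh1 result was not tested. Pcdh10 and Pcdhb15 to Pcdhb22 were lower in KPSC, as were leukocyte markers. All 8 leukocyte markers had negative log2 fold changes, 2 of them past the test in limma and 5 at an unadjusted p under 0.05, and their sum ran between 14478 and 18715 normalised reads in KPSC and between 20145 and 24690 in KPC. Coro1a, an actin-binding protein of leukocytes, had a log2 difference of -0.73 (limma, adjusted p = 0.0112). The part of leukocytes in the lower members was not tested.

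The remaining 7 non-clustered members did not pass the test, with log2 fold changes from -0.94 to 1.98 and adjusted p from 0.0833 to 0.84 (limma). Pcdh17, which works at synapses in mouse brain, had 477, 453 and 682 normalised reads in the KPSC libraries and 474, 424 and 361 in the KPC libraries. Pcdh18, a partner of the adaptor Dab1 in mouse, had 196, 196 and 255 in KPSC and 198, 166 and 139 in KPC. For both genes KPSC replicate 3 was the highest library and the groups overlapped; the log2 fold changes were 0.34 (SE 0.18; adjusted p = 0.263) and 0.36 (SE 0.19; adjusted p = 0.256) in limma. Pcdh7, a binder of protein phosphatases, had 88.1, 73.7 and 143 in KPSC and 71.0, 114 and 72.2 in KPC, and 24.6% of its windows of 100 exonic bases also lie in another gene, the antisense 4932441J04Rik. Pcdh12, a protocadherin of endothelial cells, had 41.1, 50.3 and 60.5 in KPSC and 47.3, 85.8 and 52.8 in KPC. Both overlapped between the groups, at log2 fold changes of 0.22 (SE 0.31; adjusted p = 0.699) and -0.26 (SE 0.31; adjusted p = 0.646) in limma.

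Pcdh20 was low, at 3.62, 7.82 and 22.5 normalised reads in the KPSC libraries and 1.82, 1.68 and 1.08 in the KPC libraries. Its groups did not overlap, KPSC replicate 3 held most of the level, and its log2 fold change of 1.98 (SE 0.65) missed the threshold (limma, adjusted p = 0.0833). Pcdh9 averaged 34.3 ± 9.30 in KPSC and 39.0 ± 14.2 in KPC, and Pcdh15, the tip-link protein of inner-ear hair cells, averaged 4.69 ± 4.30 in KPSC and 8.91 ± 5.59 in KPC (SD, n = 3 each). The summed level of the 9 non-clustered members was 2555 ± 236 in KPSC and 2475 ± 353 in KPC, a ratio of 1.03, with Pcdh1 and Pcdh10 moving in opposite directions. Pcdh1 made up 60.1% of that sum in KPSC and 27.5% in KPC, and Pcdh10 made up 2.76% in KPSC and 40.8% in KPC.

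**Figure D1:**
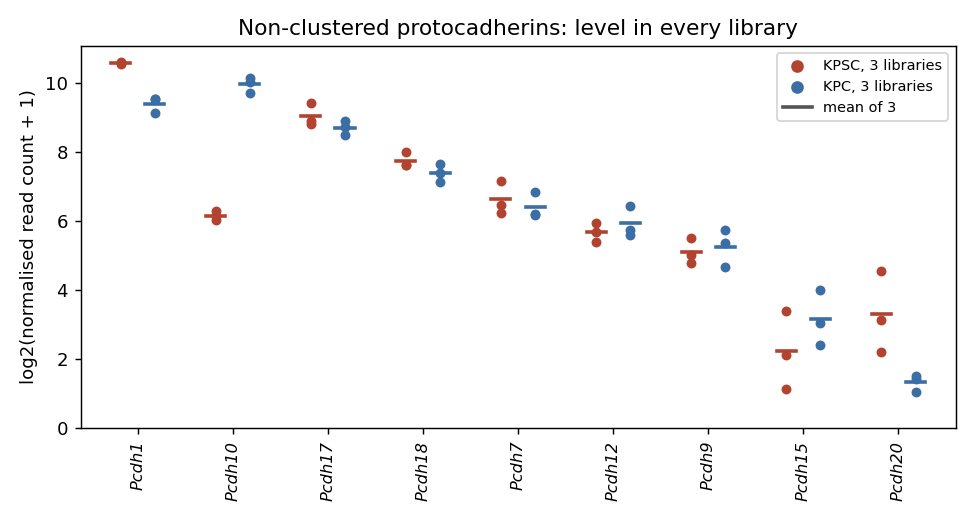
Level of the 9 non-clustered protocadherins, as log2 of the normalised reads plus 1, with a point per library, a bar at the mean of 3 log2 values, and KPSC left of KPC. Pcdh10 lies between 63.7 and 77.7 normalised reads in KPSC and between 840 and 1143 in KPC, while Pcdh1 lies between 1508 and 1551 in KPSC and between 562 and 745 in KPC.

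The beta cluster spans 37264938 to 37524479 on chromosome 18, all on the plus strand. Of its 22 genes 21 were tested, and 8 were lower in KPSC and 0 higher, which is 38.1% beside 6.76% lower among all genes. At an unadjusted p under 0.05 in limma the counts were also 8 and 0, with no share over all genes given at that cut. These 8 are the last of the array, Pcdhb15 to Pcdhb22 (37473540 to 37524479), without a gap. Pcdhb2 to Pcdhb14, the 13 tested genes before them, had log2 fold changes from -0.75 to 0.71 with a median of 0.00 and missed the threshold (limma, adjusted p from 0.207 to 0.998), and Pcdhb1, with at most 1 read in a library, was not tested. The median over the tested beta genes was -0.54, beside 0.01 over all genes.

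**Figure D2:**
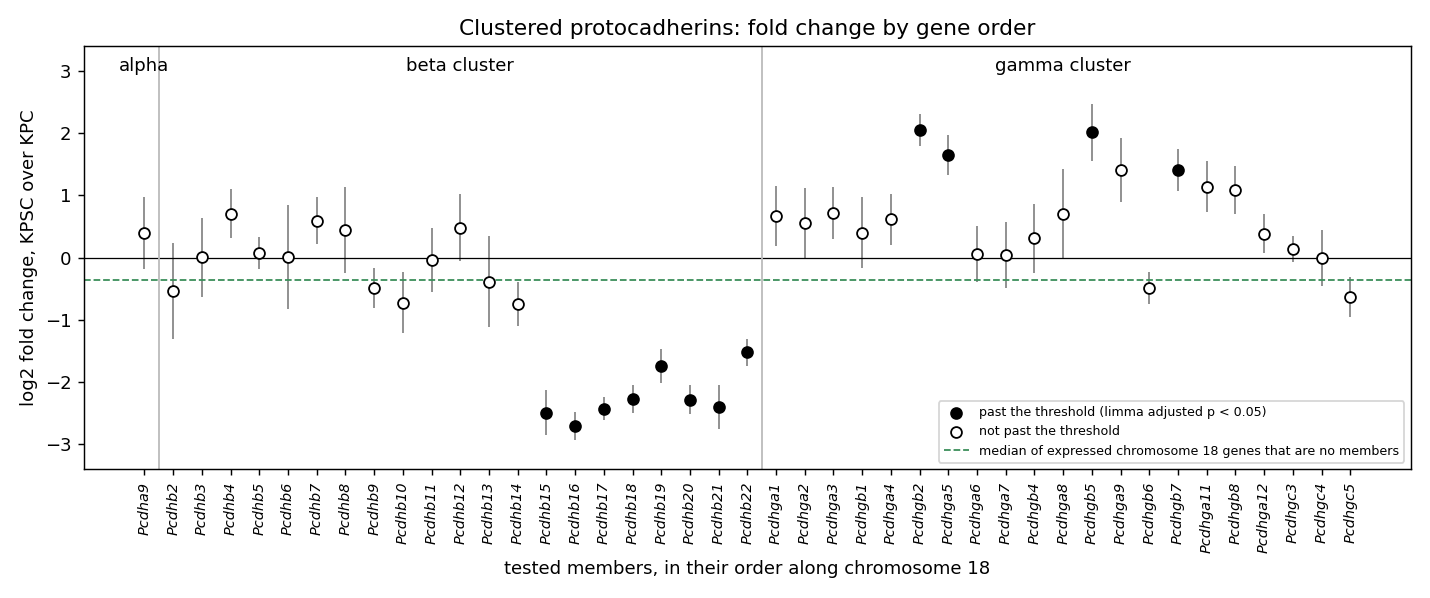
Log2 fold change (KPSC over KPC, normalised reads plus 1) of each tested clustered protocadherin, in gene order along chromosome 18, with lines of 1 SE from limma either side (3 KPSC and 3 KPC libraries); filled points passed the test, and the dashed line is the median of -0.36 over the 293 other genes of the chromosome with a mean of at least 50 normalised reads. The run Pcdhb15 to Pcdhb22 lies between -2.71 and -1.52, and the tested beta genes before it between -0.75 and 0.71.

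Pcdhb17 was the most abundant of the 8, with 86.9, 84.9 and 116 normalised reads in KPSC replicates 1, 2 and 3, against 591, 525 and 439 in KPC replicates 1, 2 and 3. Pcdhb16 had 38.6, 49.2 and 46.6 in KPSC, against 360, 309 and 234 in KPC. Pcdhb20 had 48.3, 45.8 and 35.4 in KPSC, against 273, 191 and 183 in KPC. In all 3 genes the groups are widely separated, and KPC replicate 1 is the highest library. Their log2 fold changes were -2.43 (SE 0.18; adjusted p = 0.000301) for Pcdhb17, -2.71 (SE 0.22; adjusted p = 0.000413) for Pcdhb16 and -2.28 (SE 0.24; adjusted p = 0.00124) for Pcdhb20, all in limma.

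Pcdhb18 had 27.8, 29.0 and 34.5 normalised reads in the KPSC libraries, against 172, 146 and 134 in the KPC libraries. Pcdhb19 had 32.6, 35.8 and 24.2 in KPSC, against 129, 104 and 85.2 in KPC. Pcdhb22, the last gene of the array, had 45.9, 63.7 and 59.6 in KPSC, against 182, 167 and 141 in KPC. The groups are again apart, though by less for Pcdhb19 and Pcdhb22, at log2 fold changes of -2.27 (SE 0.22; adjusted p = 0.0010) for Pcdhb18, -1.75 (SE 0.27; adjusted p = 0.00624) for Pcdhb19 and -1.52 (SE 0.22; adjusted p = 0.00419) for Pcdhb22 in limma. Pcdhb15 and Pcdhb21 were low genes. Pcdhb15 had 4.83, 4.47 and 3.45 in KPSC, against 32.7, 26.9 and 25.9 in KPC, and Pcdhb21 had 4.83, 4.47 and 4.32 in KPSC, against 23.7, 29.4 and 32.3 in KPC. Their log2 fold changes on the log2(value + 1) scale, which understates low genes, were -2.49 (SE 0.36; adjusted p = 0.0044) and -2.40 (SE 0.35; adjusted p = 0.00475) in limma.

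The beta genes before Pcdhb15 had values on both sides of 0. Pcdhb5, the most abundant of them, had 83.3, 82.7 and 65.6 normalised reads in the KPSC libraries and 98.2, 63.9 and 61.5 in the KPC libraries, with overlapping groups and a log2 fold change of 0.07 (SE 0.26; limma, adjusted p = 0.885). Pcdhb9 had 49.5, 44.7 and 32.8 in KPSC and 74.6, 69.0 and 39.9 in KPC, which overlap as well (-0.49, SE 0.32; limma, adjusted p = 0.376). Pcdhb14, the direct neighbour of the changed run, had 29.0, 27.9 and 17.3 in KPSC and 53.7, 42.9 and 30.2 in KPC; its groups just missed each other and its log2 fold change of -0.75 (SE 0.35) missed the threshold (limma, adjusted p = 0.207). At the other side of 0, Pcdhb4 had 10.9, 8.94 and 12.1 in KPSC and 8.19, 5.05 and 5.39 in KPC, without overlap (0.71; limma, adjusted p = 0.292).

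Summed over the cluster, the beta genes held 531, 554 and 532 normalised reads in the KPSC libraries, against 2086, 1756 and 1462 in the KPC libraries. The means were 539 ± 13.0 in KPSC and 1768 ± 312 in KPC (SD, n = 3 each), a ratio of 0.305. Pcdhb15 to Pcdhb22, which were picked here for passing the test, summed to 310 ± 18.1 in KPSC and 1512 ± 245 in KPC, while Pcdhb1 to Pcdhb14 summed to 229 ± 18.1 in KPSC and 256 ± 67.2 in KPC. The 8 genes thus made up 54.5%, 57.3% and 60.9% of the cluster's reads in the KPSC libraries and 84.6%, 85.3% and 87.2% in the KPC libraries. Per kilobase of exon, Pcdhb5 had the highest mean in KPSC at 21.8 ± 2.84 normalised reads, next to Pcdhb17 at 20.6 ± 3.70, which lies within the spread. In KPC Pcdhb17 led at 111 ± 16.4 per kilobase, ahead of Pcdhb20 at 60.6 ± 14.0 and Pcdhb16 at 57.6 ± 12.1 (SD, n = 3 each).

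**Figure D3:**
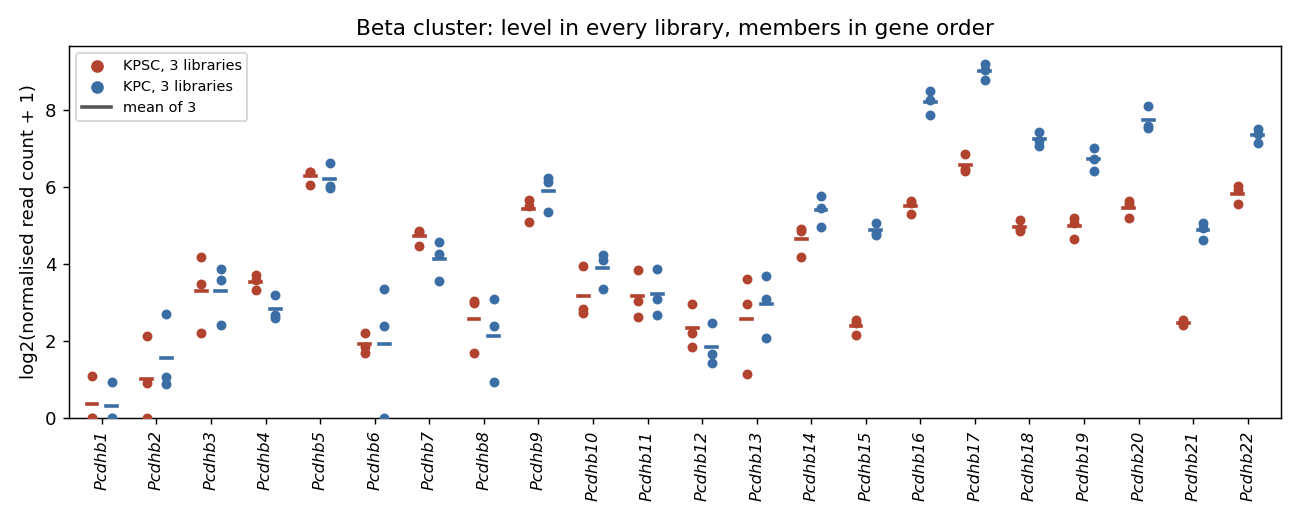
Level of each beta-cluster gene, as log2 of the normalised reads plus 1, in gene order, with a point per library, a bar at the mean of 3 log2 values, and KPSC left of KPC. All groups from Pcdhb15 to Pcdhb22 are apart, as are those of Pcdhb4 and Pcdhb14 by smaller gaps. Pcdhb17 lies between 84.9 and 116 normalised reads in KPSC and between 439 and 591 in KPC, while Pcdhb5 lies between 65.6 and 83.3 in KPSC and between 61.5 and 98.2 in KPC.

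Counting could blur related genes, and the beta genes were little exposed to it. In the GENCODE M21 annotation, whose exonic lengths equal those of the table for all members but Pcdh12 (6058 bases against 6055), a median of 0.207% of the 100-base windows of a beta gene also occur in another gene. Pcdhb21 and Pcdhb22 overlap each other over 9.67% and 6.88% of their exonic bases, and Pcdhb12, which did not pass the test, shares 62.3% of its windows, mostly with the antisense gene Gm37446. Gamma genes share a median of 44.6% of their exonic bases with other genes of the same strand, at a range of 31.5% to 66.8%, and alpha genes share 48.6% to 53.6%. How reads in the shared constant exons were assigned, and whether strand was used, is not given in the sources used here, so the values of single alpha and gamma genes are uncertain.

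The gamma cluster (37661793 to 37841873, plus strand) held higher genes and no lower ones. All 21 of its genes with values were tested, and 4 were higher in KPSC and 0 lower, which is 19% beside 7.61% higher among all genes. At an unadjusted p under 0.05 in limma 7 were higher and 0 lower, again with no share over all genes given at that cut. Its median log2 fold change was 0.62, beside 0.01 over all genes, and 14 of the 17 genes that did not pass the test had positive values. Because gamma genes share exons, these values may not be independent of each other. Pcdhgb2 and Pcdhga5 are neighbours among the genes with values, while Pcdhgb5 and Pcdhgb7 stand apart from them and from each other.

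Pcdhgb2 had 114, 122 and 117 normalised reads in KPSC replicates 1, 2 and 3, against 37.3, 23.6 and 23.7 in KPC replicates 1, 2 and 3. The KPSC libraries lie close together and well above the KPC libraries. The means were 117 ± 4.18 in KPSC and 28.2 ± 7.89 in KPC (SD, n = 3 each), 4.16-fold higher, with a log2 fold change of 2.05 (SE 0.26; limma, adjusted p = 0.00284) that passed the test with any single library left out.

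Pcdhga5 had 48.3, 43.6 and 35.4 normalised reads in the KPSC libraries, against 11.8, 10.9 and 16.2 in the KPC libraries. Pcdhgb5 had 25.4, 31.3 and 35.4 in KPSC, against 10.9, 8.41 and 3.23 in KPC. Pcdhgb7 had 42.3, 31.3 and 34.5 in KPSC, against 13.6, 16.0 and 9.70 in KPC. None of these groups overlapped, and the log2 fold changes were 1.64 (SE 0.32; adjusted p = 0.0145), 2.01 (SE 0.47; adjusted p = 0.0274) and 1.41 (SE 0.33; adjusted p = 0.0298) in limma, in the same order of genes. Each of these 3 calls was lost when certain single libraries were left out. Pcdhga5 missed the threshold without KPSC replicate 1 or 2 or KPC replicate 1 or 2 (limma, adjusted p from 0.0514 to 0.0596). Pcdhgb5 missed it without KPSC replicate 1 or 2 or KPC replicate 2 or 3 (limma, adjusted p from 0.0616 to 0.0878), and Pcdhgb7 missed it without any library other than KPSC replicate 3 (limma, adjusted p from 0.0596 to 0.105). Of the exonic bases of Pcdhgb7, 16.4% also lie opposite the antisense gene Gm26672.

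Further gamma genes had groups that did not overlap without passing the test. Pcdhga3, Pcdhga9, Pcdhga11 and Pcdhgb8 (which the table types as a polymorphic pseudogene) were each higher in all KPSC libraries than in any KPC library, with log2 fold changes of 0.72, 1.40, 1.14 and 1.08 (limma, adjusted p of 0.318, 0.111, 0.11 and 0.105). Pcdhgb6, abundant in both groups, had 117, 141 and 136 normalised reads in the KPSC libraries and 264, 177 and 134 in the KPC libraries, with overlap and a log2 fold change of -0.49 (SE 0.25; limma, adjusted p = 0.248).

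The C-type gamma genes stand last in the cluster and are, in mouse brain, expressed more evenly from cell to cell than the others. Pcdhgc3, a broadly expressed C-type gene, had 163, 199 and 215 normalised reads in the KPSC libraries and 225, 167 and 139 in the KPC libraries. Its groups overlapped (log2 fold change 0.14, SE 0.21; limma, adjusted p = 0.73). Pcdhgc5 had 39.8, 46.9 and 54.4 in KPSC and 111, 62.2 and 56.1 in KPC, with groups that just missed each other and a change of -0.63 (SE 0.32; limma, adjusted p = 0.235). Pcdhgc4, which mouse interneurons need to survive, averaged 23.4 ± 5.19 in KPSC and 25.9 ± 16.2 in KPC (SD, n = 3 each).

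**Figure D4:**
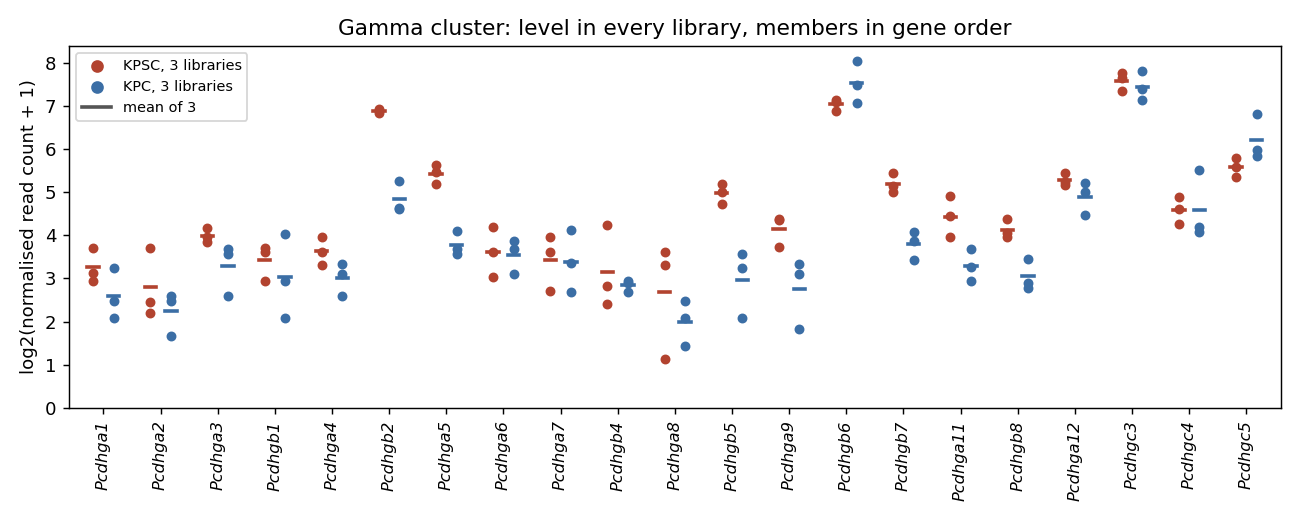
Level of each gamma-cluster gene, as log2 of the normalised reads plus 1, in gene order, with a point per library, a bar at the mean of 3 log2 values, and KPSC left of KPC. Pcdhgb2 lies between 114 and 122 normalised reads in KPSC and between 23.6 and 37.3 in KPC, and Pcdhgc3 lies between 163 and 215 in KPSC and between 139 and 225 in KPC.

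The gamma genes summed to 753, 801 and 859 normalised reads in the KPSC libraries and to 871, 574 and 507 in the KPC libraries, where the groups overlap through KPC replicate 1. The means were 805 ± 53.0 in KPSC and 650 ± 194 in KPC (SD, n = 3 each), a ratio of 1.24. The shares of 2 sets of genes within the cluster did not overlap between the groups, although single genes such as Pcdhga12 and Pcdhgc4 had shares that did. Pcdhgb2, Pcdhga5, Pcdhgb5 and Pcdhgb7, again picked for passing the test, made up 30.4%, 28.5% and 25.8% of the gamma reads in the KPSC libraries and 8.46%, 10.3% and 10.4% in the KPC libraries. The 3 C-type genes made up 29.3%, 33.6% and 34.7% in KPSC and 43.7%, 42.8% and 41.9% in KPC, although their summed level was 263 ± 38.9 in KPSC and 279 ± 88.9 in KPC (SD, n = 3 each). The 18 Pcdhga and Pcdhgb genes summed to 542 ± 16.8 in KPSC and 371 ± 105 in KPC.

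**Figure D5:**
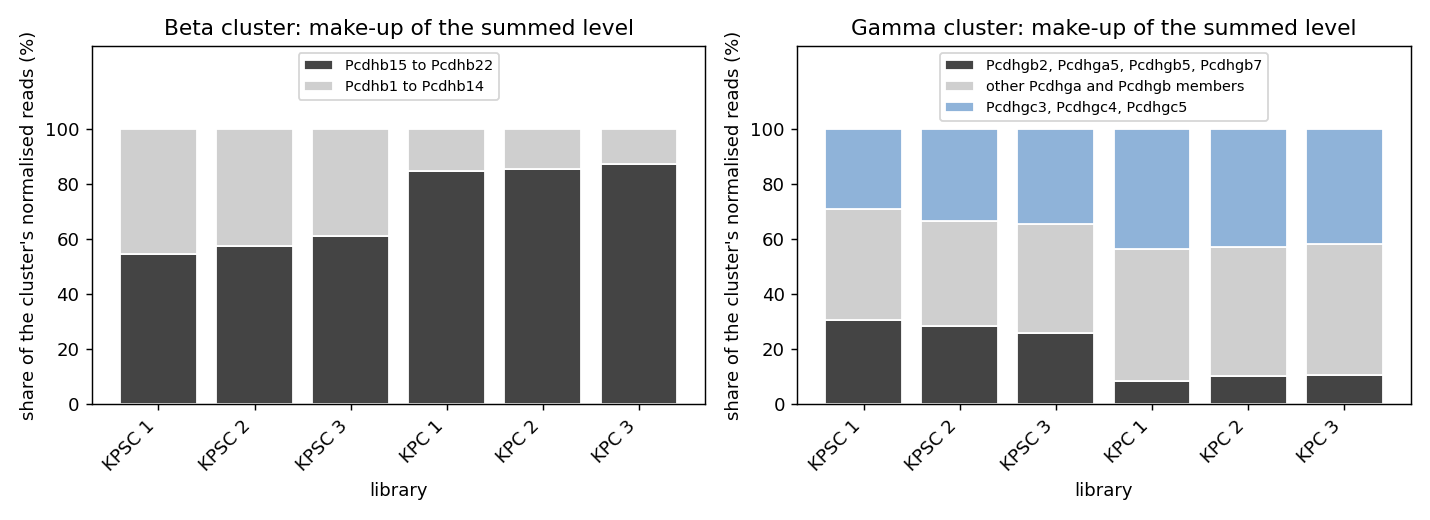
Percent of the cluster's normalised reads in each library taken by Pcdhb15 to Pcdhb22 within the beta cluster, and by the 4 higher genes and the 3 C-type genes within the gamma cluster, in stacked bars with KPSC left of KPC. The beta run takes 54.5% to 60.9% in KPSC and 84.6% to 87.2% in KPC, and the 4 gamma genes take 25.8% to 30.4% in KPSC and 8.46% to 10.4% in KPC.

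The alpha cluster (36930184 to 37187661, plus strand) was barely detected in either group. Its 5 genes with values held 19 reads over all 6 libraries, and Pcdha9 alone reached the filter, with 1.21, 1.12 and 1.73 normalised reads in the KPSC libraries and 0, 1.68 and 1.08 in the KPC libraries. Its log2 fold change of 0.40 (SE 0.58) missed the threshold (limma, adjusted p = 0.713). The other 4 alpha genes had at most 2 reads in any library. A difference in the alpha cluster was not detectable at this depth.

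Per kilobase of exon, the leading protocadherins differed between the groups. In KPSC Pcdh1 led at 174 ± 2.44 normalised reads per kilobase, followed by Pcdh17 at 41.4 ± 9.71, Pcdh18 at 40.1 ± 6.37 and Pcdhgc3 at 35.0 ± 4.84, and these last 3 lie within their spread. In KPC Pcdhb17 led at 111 ± 16.4, followed by Pcdh1 at 77.4 ± 11.7, Pcdh10 at 63.6 ± 9.75 and Pcdhb20 at 60.6 ± 14.0 (SD, n = 3 each), where the last 3 lie within about their spread. Pcdh10 stood at 4.44 ± 0.442 per kilobase in KPSC.

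Among the genes around the clusters, more were lower than higher in KPSC. Of 38 tested genes within 1 Mb of the clusters that are no protocadherins, 2 were higher and 14 lower. Over all genes 7.61% were higher and 6.76% lower, and of the 21 tested beta genes 8 were lower. A larger share of lower genes than over the whole table was thus not particular to the beta cluster. The median log2 fold change of the 38 genes was -0.50, beside -0.36 over 293 genes of chromosome 18 with a mean of at least 50 normalised reads. Pcdhb15 to Pcdhb22, between -2.71 and -1.52, lay below both medians, and the 4 higher gamma genes, between 1.41 and 2.05, and Pcdh1, at 1.18, lay above them. The 2 other genes between the beta and gamma clusters did not pass the test. Taf7, a subunit of the general transcription factor TFIID, averaged 103 ± 14.6 normalised reads in KPSC and 122 ± 21.7 in KPC (log2 fold change -0.24; limma, adjusted p = 0.516), and Slc25a2, a mitochondrial carrier, averaged 4.88 ± 3.38 in KPSC and 13.5 ± 2.44 in KPC (-1.47; limma, adjusted p = 0.112; SD, n = 3 each).

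Among 18 genes listed here for promoter choice in the clusters, 1 was higher and 1 lower in KPSC, with a median log2 fold change of 0.01. The list also takes in the general histone methyltransferases Setd2 and Nsd1, and a role of its genes in promoter choice was not tested. The cohesin subunit Smc3 averaged 1711 ± 141 in KPSC and 1131 ± 106 in KPC (0.60; limma, adjusted p = 0.00979), and the DNA methyltransferase Dnmt3a averaged 926 ± 77.3 in KPSC and 1337 ± 214 in KPC (-0.52; limma, adjusted p = 0.0349; SD, n = 3 each). Both genes together are 11.1% of that list, beside 14.4% called over all genes. Of 22 partners and signalling genes, 13.6% were called, again close to the share over all genes; 3 were higher and 0 lower, their median being 0.15. Ret, a receptor kinase that phosphorylates clustered protocadherins in mouse, averaged 234 ± 36.9 normalised reads in KPSC and 22.5 ± 3.99 in KPC (3.32; limma, adjusted p = 0.000262; SD, n = 3 each). Set, a phosphatase inhibitor that binds human PCDH7, averaged 7116 ± 253 in KPSC and 4196 ± 215 in KPC (0.76; limma, adjusted p = 0.00319; SD, n = 3 each).

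In the wider cadherin family, genes that passed the test lay in both directions, beside 7.61% of all genes higher and 6.76% lower. Of 18 tested cadherins and catenins 8 did not pass, 4 were higher and 6 lower, their median being 0.11. The list held 20 genes, and the alpha-catenin genes Ctnna1 and Ctnna2 were not among the genes analysed. Cdh17, a cadherin of gut epithelium, averaged 4871 ± 1141 normalised reads in KPSC and 1174 ± 253 in KPC (2.05; limma, adjusted p = 0.00106), and Jup, plakoglobin, also rose (0.94; limma, adjusted p = 0.00245). The desmosomal cadherin Dsc2 averaged 160 ± 35.9 in KPSC and 544 ± 48.8 in KPC (-1.78; limma, adjusted p = 0.00106; SD, n = 3 each) and Dsg2 fell by 0.97 on the log2 scale (limma, adjusted p = 0.00162), and both lie on chromosome 18. Of 17 tested atypical cadherins 12 did not pass, 3 were higher and 2 lower, their median being 0.04. Cdhr5 (1.03; limma, adjusted p = 0.0142) and Fat2 (2.42; limma, adjusted p = 0.0349) were higher, while Celsr2, a planar polarity cadherin (-2.41; limma, adjusted p = 0.00217), and Cdhr1 (-2.05; limma, adjusted p = 0.00248) were lower.

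Protocadherins are best known from neurons, and Pcdh12 from endothelium, so markers of other cell types are set beside the results. Of 13 neural and Schwann markers 3 were higher and 0 lower, and their sum ran between 2399 and 2876 normalised reads in KPSC and between 2084 and 2153 in KPC. Prph, a neuronal filament gene, averaged 166 ± 58.8 in KPSC and 14.5 ± 5.86 in KPC (3.44; limma, adjusted p = 0.00146), and S100b averaged 107 ± 35.5 in KPSC and 13.3 ± 2.55 in KPC (2.88; limma, adjusted p = 0.00217; SD, n = 3 each). The Schwann cell factor Sox10 had 2.42, 0 and 19.0 normalised reads in the KPSC libraries and 1.82, 2.52 and 4.31 in the KPC libraries. Its groups overlapped, KPSC replicate 3 held most of the level, and it did not pass the test (log2 difference 0.12, limma, adjusted p = 0.955). The 4 higher gamma genes and Pcdh1 moved in the direction of the 3 higher markers, while 6 of the 13 had negative log2 fold changes. Pcdh10 and the 8 lower beta genes moved against the 3 higher markers and in the direction of the leukocyte markers.

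None of 10 endothelial markers passed in limma, at sums of 2914 to 4460 normalised reads in KPSC and 2703 to 4105 in KPC. Of 10 fibroblast markers 0 were higher and 1 lower (sums of 116795 to 234763 in KPSC and 147699 to 168956 in KPC). None of 20 acinar and 10 islet markers passed in limma, and sums ran between 60821 and 3895750 in KPSC and between 148920 and 1206450 in KPC for acinar genes, and between 193 and 20557 in KPSC and between 8355 and 9614 in KPC for islet genes. For the endothelial, acinar and islet lists the count was 0 at an unadjusted p under 0.05 too, and 0 in edgeR and DESeq2. Values were at hand for 13 of 15 neural and Schwann markers listed, for 20 of 21 acinar markers and for all markers of the other cell types. Elavl3, Snap25 and Rnase1 were not among the genes analysed. The part of these cell types in the protocadherin levels was not tested.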

How the data were processed

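RNA was measured in 3 KPSC and 3 KPC libraries, made with a TruSeq kit. Per the submitters' processing notes CASAVA 1.7 and the mm10 build were used; no source used here names the aligner, the counter or the strand setting. The deposited values are a signal per gene and library that behaves as a read count divided by a size factor (0.828 to 1.19), and these factors returned whole reads for 100.0% of values within 0.01. The authors' deposited adjusted p-values were used only to compare calls. Of 25450 rows 18185 had values, and 5 whose symbols had lost letters were left out.

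As the values are normalised, limma 3.58.1 in R 4.3.3 gave the main results, with moderated variances that follow the mean, on log2(value + 1) of all genes that reached 1 in 3 or more libraries. edgeR 4.0.16 (quasi-likelihood, TMM) and DESeq2 1.42.0 were run on the recovered reads. Alternatives were other pseudocounts, filters, scalings, a fit without the variance trend, a block for the replicate number, each library left out in turn, and the libraries with at most 5% acinar reads. limma and edgeR, but not DESeq2, were checked on simulated counts, with changes planted only in genes averaging at least 50 normalised reads. Of the 57 members 18 reach that mean. Planted 2-fold changes were recovered at 88% in limma and 90% in edgeR, and 4-fold changes at 100% in both, with 6 and 8 false calls. Members named with every value passed the test or averaged at least 50 normalised reads (23 members); lists gave up to 2 genes a direction. Members and lists were chosen with earlier results of these data known. Exon sharing used GENCODE M21 (18175 gene IDs matched). Every pair of libraries differed beyond counting noise (smallest chi-square per df 38.7). Python 3.11.15, pandas 2.3.3 and matplotlib 3.10.9 made tables and figures.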

Additional observations from a re-analysis of the deposited data

How the results depend on the processing

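Of 238 alternative values of the 14 called protocadherins, 206 kept their call and direction, 32 lost the call and 0 reversed, and 11 of the 14 were called under every alternative except the 3 libraries with at most 5% acinar reads, where 0 were called, higher 0 and lower 0. There limma called 0 genes of the whole table (smallest adjusted p = 0.0656; 3252 at an unadjusted p under 0.05), and edgeR and DESeq2 were not run. Leaving out 1 library gave 11 to 14 members called (2 to 5 higher, 9 lower) and 1245 to 3037 genes, against 2406. Library-size scaling moved the median of all genes to -0.18 and called 1278 genes (380 higher, against 1274 of 2406) and 12 members (3 higher), losing Pcdhgb5 and Pcdhgb7, with a beta sum at -1.90 against -1.71. Without a variance trend 1543 genes were called. The replicate numbers did not pair the libraries (correlations of -0.045, -0.178 and -0.28); with a replicate block 1014 genes and 11 members (2 higher) were called, without Pcdhga5, Pcdhgb5 and Pcdhgb7. Leaving out 1 library moved the log2 ratio of summed levels between -1.83 and -1.58 for beta, 0.16 and 0.57 for gamma, -1.76 and -0.63 for alpha, and -0.07 and 0.12 for the other members. Reversed, among genes not called, were Pcdh7 (-0.050 without KPSC replicate 3, up to 0.44 without KPC replicate 2), Pcdhb5 (-0.12 with library-size scaling, -0.02 without KPC replicate 2, -0.046 without KPC replicate 3, up to 0.29 without KPC replicate 1, -0.27 in the 3 libraries) and Pcdhgc3 (-0.054 with library-size scaling, -0.022 without KPC replicate 3, up to 0.32 without KPC replicate 1); the cause was not tested. With 3 libraries a group, low genes such as the alpha cluster are limited by counts.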
